A study of Mus musculus with 18 samples.

Results

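The subject of this report is H3K27me3, trimethylation of lysine 27 of histone H3, at 9 genes of the Sonic hedgehog pathway in the embryonic mouse forebrain. The genes are Shh, Ptch1, Smo, Boc, Cdon, Hhip, Gli1, Gli2 and Gli3. They are 9 of 20661 autosomal protein-coding genes. They were chosen with their counts in these libraries already known, Gli2 foremost, so their differences between genotypes and stages are given as a description and support nothing by themselves. A level is the sum of the counts of all enriched intervals that overlap the gene or the 2.5 kb on either side, scaled to a common depth, the mean over the 12 libraries (a normalised count).

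The mark was profiled by bulk CUT&Tag, in which a transposase tethered to an antibody cuts and tags the DNA around the mark. The tissue was the medial ganglionic eminence (MGE), the ventral forebrain zone where many cortical interneurons are born. WT and Ezh2 KO embryos were sampled at both E12.5 and E15.5, and each of the 4 groups has 3 biological replicates. Ezh2 encodes a methyltransferase that places H3K27me3. The KO genotype is labelled Nkx2.1-CreC/+;Ezh2;Ai9F/+, and the stated cross, of Nkx2.1-CreC/C;Ezh2F/+ males with Ai9F/F;Ezh2F/+ females, gives every pup 1 Nkx2.1-CreC allele and 1 Ai9F reporter allele, so the WT embryos carried them too. Nkx2.1-Cre acts in cells of the Nkx2-1 lineage. At E12.5 the whole MGE was taken, and at E15.5 the tissue was cut out under fluorescence for Tom+ cells, so stage and dissection cannot be told apart. MGEs of like genotype were pooled where needed, and a smaller share of cells with the mark and less mark per cell cannot be told apart in bulk tissue.

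Hedgehog ligands bind the receptor Ptch1, which otherwise holds back the membrane protein Smo. Active Smo changes the balance of the Gli transcription factors, of which Gli1 and Gli2 mainly activate targets and Gli3 mainly represses them in the absence of ligand. In the ventral forebrain the pathway is known for inducing Nkx2-1 and for patterning the MGE against its dorsal neighbours. H3K27me3 is the mark of Polycomb repression, so a high level is usual at genes that are silent in many of the cells sampled. It is not a measure of RNA.

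The counts in intervals ranged from 573838 to 6846250 per library, and the depth recovered from the deposited scores ranged from 0.0751 to 0.698 counts per 200 bp window. At E12.5 the depths were 0.117, 0.698 and 0.481 in WT and 0.212, 0.272 and 0.243 in KO, so that WT replicate 1 was shallower than each KO library and the other two were deeper. E12.5 WT replicate 3 stood apart from the other WT libraries in that 20.9% of its covered bases lay on chromosome X, against 18.1% to 24.5% in the E12.5 KO libraries and 0.874% to 1.13% in the other 5 WT libraries. Genes on chromosome X do not enter the values below, but the depth that scales them was recovered from intervals on all chromosomes. The mark does not report which cells were sampled: the MGE marker genes Nkx2-1, Lhx6, Lhx8, Dlx1 and Dlx2 had an interval in all 12 libraries, and so did 3 of 4 cortical marker genes. Among the non-neural markers Pecam1 and Hbb-bs had none in any library and Col1a1 had one in all.

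Of the 9 hedgehog genes, 5 carried an interval in all 12 libraries (Shh, Gli1, Gli2, Boc and Cdon), 3 in some (Gli3 and Ptch1 in 10, Hhip in 9) and Smo in none. Over all autosomal protein-coding genes 12.1% had an interval in all 12 libraries, 26.7% in some and 61.2% in none. A gene without an interval has no count in the lists, so 0 below means that nothing was called there and not that no read was found.

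Levels of different genes can be set side by side per kb of the gene and its margins. In E12.5 WT the order of the mean normalised counts per kb was Shh (68.8 ± 3.26), Gli1 (28.8 ± 8.24), Gli2 (13.7 ± 2.16), Boc (6.21 ± 2.69), Cdon (1.38 ± 0.819), Gli3 (0.663 ± 0.153), Hhip (0.525 ± 0.0616), Ptch1 (0.233 ± 0.275) and Smo (no interval), each with its SD over 3 libraries. The first 5 do not overlap from one to the next, while Cdon and Gli3, Gli3 and Hhip, and Hhip and Ptch1 do. In E12.5 KO Shh had 103 ± 23.6, Gli1 22.4 ± 1.98 and Gli2 4.50 ± 0.926, and the other 5 marked genes were at means of 0.0858 to 0.637. In E15.5 KO the values were 104 ± 20.5 for Shh, 24.1 ± 3.67 for Gli1 and 6.21 ± 0.730 for Gli2. Shh, Gli1 and Gli2 thus had the most counts per kb of gene and margins among the 9 genes in these groups, in that order. Per covered kb of the same span, Gli1 and Gli2 had 36.9 ± 2.37 and 34.8 ± 7.59 in E12.5 WT, where their ranges overlap. They had 36.7 ± 9.44 and 21.5 ± 4.27 in E12.5 KO, and 33.6 ± 7.94 and 22.4 ± 2.04 in E15.5 KO, with no overlap. The margin of Gli1 holds part of an interval from a region that overlaps the neighbouring Arhgap9. Densities without margins are not given here.

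Promoter sequence was at hand for 6 of the 9 genes, from RefSeq on GRCm38.p6. Gli2, Gli3 and Smo are shown because they span the range of the mark at a start site: an interval lay over the 250 bases before it in 12, 9 and 0 of the 12 libraries. Each sequence runs 5′ to 3′ on the strand of the gene, and capitals mark CpG dinucleotides, which Polycomb-marked promoters often hold in number. The annotated span of Gli2 extends 0.786 kb beyond the start site of its entry, so the stretch lies upstream of that start but may lie within a longer transcript model.
Gli2 upstream, chr1:119053620-119053869, minus strand: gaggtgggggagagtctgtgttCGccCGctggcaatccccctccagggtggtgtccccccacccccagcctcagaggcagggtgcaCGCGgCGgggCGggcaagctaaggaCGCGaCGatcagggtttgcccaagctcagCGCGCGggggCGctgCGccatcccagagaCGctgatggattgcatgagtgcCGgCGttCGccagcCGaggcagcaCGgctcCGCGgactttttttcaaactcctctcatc
Gli3 upstream, chr13:15463473-15463722, plus strand: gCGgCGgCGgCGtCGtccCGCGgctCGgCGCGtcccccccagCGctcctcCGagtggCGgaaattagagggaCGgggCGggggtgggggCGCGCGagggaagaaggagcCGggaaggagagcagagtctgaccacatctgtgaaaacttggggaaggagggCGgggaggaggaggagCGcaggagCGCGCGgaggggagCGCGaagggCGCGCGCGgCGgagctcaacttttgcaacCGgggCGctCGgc
Smo upstream, chr6:29735247-29735496, plus strand: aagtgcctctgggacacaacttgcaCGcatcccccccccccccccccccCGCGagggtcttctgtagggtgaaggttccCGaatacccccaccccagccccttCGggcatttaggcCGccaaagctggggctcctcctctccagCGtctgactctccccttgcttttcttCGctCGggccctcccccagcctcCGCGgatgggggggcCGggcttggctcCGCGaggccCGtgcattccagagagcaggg

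The Gli2 stretch holds 22 CpG, the Gli3 stretch 34 and the Smo stretch 15, against a median of 10 over 20084 promoter entries. The medians were 14 for genes with an interval in all 12 libraries and 7 for genes with none. Ptch1 and Hhip have more CpG still than Gli2, with 41 and 28, and Cdon has 1. An interval lay over the Hhip stretch in 8 libraries. The entries of Ptch1 and Cdon start 7.72 and 30.5 kb inside the annotated span, and no interval lay over them, while the regions at the outer ends of these genes were called in 10 and 12 libraries. Their CpG numbers are therefore not those of the marked ends. Smo exceeds the median CpG number and had no interval over its stretch. A consensus site of the Gli proteins, TGGGTGGTC, or GACCACCCA on the other strand, was in none of the 6 stretches and in 0.154% of all entries.

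Shh encodes the ligand itself. Intervals covered 74.7% to 100% of the gene and its margins, or 11.4 to 15.3 kb, in the 12 libraries. The normalised counts were 1006, 1316 and 1154 in E12.5 WT and 1231, 1834 and 1997 in E12.5 KO. They were 1425, 1384 and 1517 in E15.5 WT and 1401, 1989 and 1581 in E15.5 KO. The E12.5 groups overlap by 1 KO library, and the E15.5 groups overlap. The log2 difference, KO minus WT, was 0.54 (SE 0.29) at E12.5 and 0.20 (SE 0.15) at E15.5. The E12.5 value lay opposite to most genes, of which 98.4% had a lower one.

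**Figure D1:**
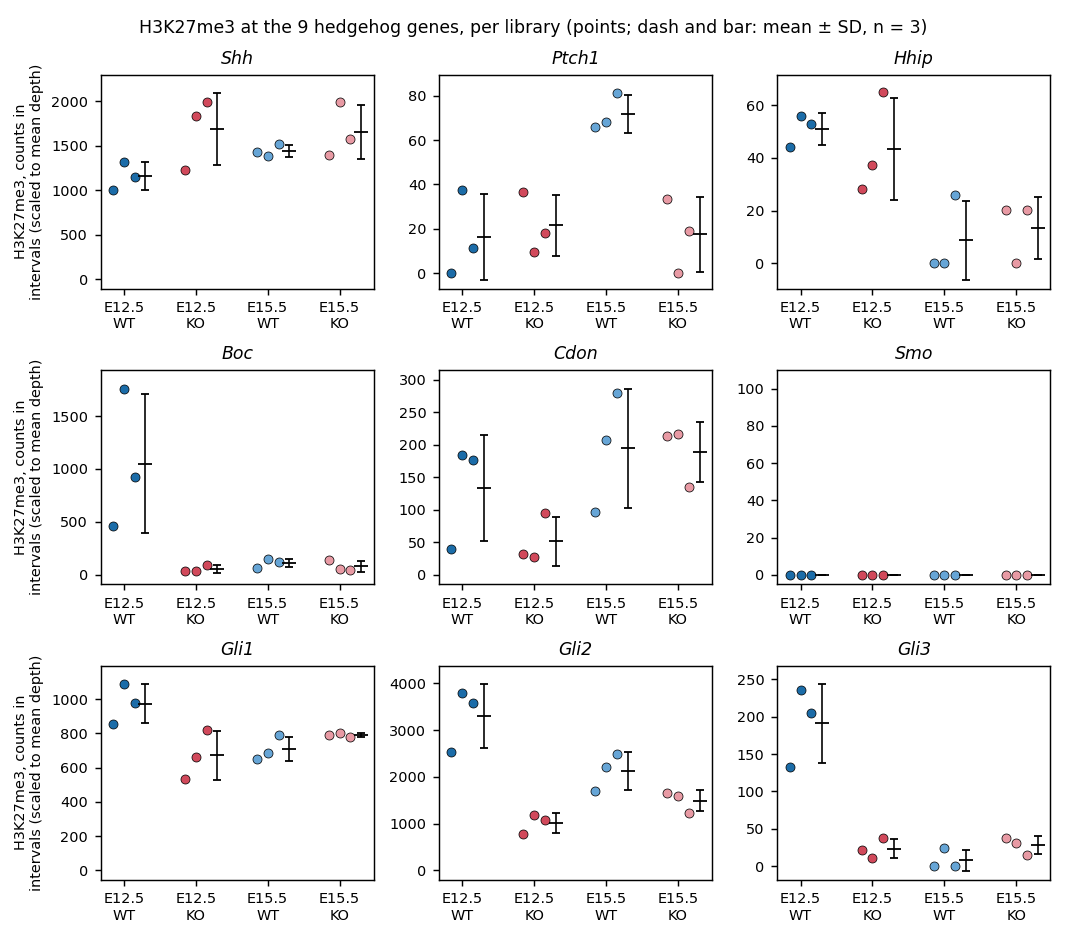
H3K27me3 at the 9 hedgehog genes: normalised counts on the y axis (linear, a separate range per gene), the 4 groups on the x axis, 1 point per library in order of replicate number, with the mean and SD beside the points (n = 3). Gli2, Gli3 and Boc are high in the 3 E12.5 WT libraries and lower in the E12.5 KO libraries, Shh is not, and Smo is at 0 throughout.

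Ptch1, the ligand receptor and itself a known target of the pathway, carried little mark. At E12.5 its normalised counts were 0, 37.6 and 11.4 in WT and 36.7, 9.54 and 18.2 in KO. At E15.5 they were 65.7, 68.3 and 81.5 in WT and 33.5, 0 and 18.8 in KO. The 3 E15.5 WT libraries were the highest of all 12. They were also among the 4 shallowest, and their counts were multiplied by 3.46, 2.01 and 1.73 to reach the common depth. The part of depth in these values was not tested. In each of the 10 libraries with an interval at least 1 lay at the end of the gene with the higher coordinate (chromosome 13, 63567401 to 63575600). Single intervals inside the gene gave 27.7 of the 65.7 counts in E15.5 WT replicate 1 and 22.5 of the 81.5 in replicate 3. Because 2 libraries had no interval, Ptch1 entered none of the 5 tests. Smo, the transducer that Ptch1 restrains, had no interval within its 25.9 kb or its margins in any library.

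Boc and Cdon are cell surface co-receptors that bind Shh and help signalling. Boc had the largest log2 difference at E12.5 of the hedgehog genes. The normalised counts were 465, 1758 and 925 in E12.5 WT and 33.1, 32.4 and 95.1 in E12.5 KO. They were 69.2, 149 and 123 in E15.5 WT and 140, 57.8 and 46.6 in E15.5 KO. The lowest E12.5 WT value was above the highest of the other 9 libraries, whose groups overlap. WT replicate 1, the shallowest of the 6 E12.5 libraries, was also above every KO library. The log2 difference was −4.29 (SE 0.54) at E12.5 and −0.54 (SE 0.47) at E15.5. These counts include the parts of intervals that lie beyond the gene and its margins. Inside that span the E12.5 means were 6.21 ± 2.69 normalised counts per kb in WT and 0.637 ± 0.476 in KO (SD, n = 3). The E12.5 log2 difference ranged from −5.00 to −3.29 over the 13 alternatives.

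The order of the 3 E12.5 WT values of Boc followed their depth, and this went with the width of the main interval rather than its density. That region (chromosome 16, 44548201 to 44592400) covers one gene end and reaches past it, and its covered length was 12.4, 44.2 and 23.0 kb in the 3 WT libraries at 35.4, 35.3 and 32.0 normalised counts per kb. In E12.5 KO it covered 4.40, 2.80 and 6.80 kb at 7.52, 11.6 and 12.7 counts per kb. Before scaling, the region held 27, 34 and 81 counts in these KO libraries, and reads outside intervals are not counted. The part of depth in the width was not tested. At E15.5 it covered 5.40, 6.40 and 6.20 kb in WT and 10.0, 6.0 and 4.4 kb in KO.

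The normalised counts of Cdon were 39.9, 185 and 176 in E12.5 WT and 31.8, 27.7 and 95.1 in E12.5 KO. They were 96.9, 207 and 279 in E15.5 WT and 214, 217 and 135 in E15.5 KO. The E12.5 groups overlap, because WT replicate 1 was as low as the KO libraries, and so do the E15.5 groups. The log2 difference was −1.41 (SE 0.56) at E12.5 and −0.08 (SE 0.36) at E15.5. A region inside the gene (chromosome 9, 35472801 to 35496200) had an interval in no E12.5 KO library, in 2 E12.5 WT libraries and in all 6 libraries of E15.5. In KO all E15.5 libraries were above all E12.5 libraries, with a log2 difference of 1.87 (SE 0.40).

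Hhip encodes a membrane protein that binds hedgehog ligands and limits signalling. Its normalised counts were 44.3, 55.8 and 53.0 in E12.5 WT and 28.2, 37.2 and 65.2 in E12.5 KO, which overlap. At E15.5 it was called in 1 WT library, at 26.0, and in 2 KO libraries, at 20.4 and 20.3. The intervals lay over or close to the start site, and the log2 difference at E12.5 was −0.24 (SE 0.39).

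Gli2 is the main activator of the response and spans 220 kb. The normalised counts were 2528, 3804 and 3572 in E12.5 WT and 780, 1183 and 1076 in E12.5 KO. They were 1688, 2210 and 2496 in E15.5 WT and 1650, 1597 and 1231 in E15.5 KO. No KO library reached a WT library of its stage. At E12.5 this held in 33% of the genes tested. Such shares were not computed at E15.5 or between the stages. The gap was wide at E12.5 and narrow at E15.5, where the highest KO and the lowest WT values were 1650 and 1688. The log2 difference was −1.70 (SE 0.30) at E12.5 and −0.51 (SE 0.18) at E15.5. Without WT replicate 3, the WT library with the high share on chromosome X, the E12.5 value was −1.64, and those of Boc and Gli3 were −4.38 and −2.98. All E12.5 KO libraries had a high share as well. Leaving out WT replicate 3 thus sets WT libraries of low share against KO libraries of high share. The share and the genotype cannot be told apart in these values.

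The Gli2 mark formed 3 main regions, each called in all 12 libraries. The region over the start site (chromosome 1, 119025401 to 119067400, printed above in part) had a mean of 1547 ± 154 normalised counts in E12.5 WT and 510 ± 108 in KO (SD, n = 3). It covered 21.0, 41.2 and 31.8 kb at 66.1, 41.1 and 49.1 counts per kb in WT, and 15.0, 21.0 and 17.2 kb at 26.2, 28.9 and 30.8 in KO. The sums thus combine a width and a density, and the densities do not overlap. At E15.5 it had 1333 ± 232 counts in WT and 949 ± 146 in KO, at 41.4 to 57.4 and 36.7 to 41.2 counts per kb. The middle region (118966201 to 119004600) lay inside the gene. Its counts at E12.5 were 219, 638 and 455 in WT and 34.3, 38.2 and 49.1 in KO. The intervals covered 10.4, 35.6 and 25.4 kb in WT and 6.6, 4.4 and 5.8 kb in KO, and their density was 21.1, 17.9 and 17.9 counts per kb in WT and 5.20, 8.67 and 8.47 in KO. At E15.5 the counts were 318, 476 and 527 in WT and 290, 296 and 191 in KO. The KO libraries thus held more in this region at E15.5 than at E12.5, with no overlap.

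The third region (118888601 to 118939800) was nearer the other end of the gene. Its counts were 922, 1453 and 1557 in E12.5 WT and 353, 539 and 497 in E12.5 KO. They came from 27.4, 49.2 and 47.4 kb at 33.6, 29.5 and 32.8 counts per kb in WT, and from 25.4, 22.8 and 23.2 kb at 13.9, 23.6 and 21.4 in KO. At E15.5 they were 273, 374 and 388 in WT and 317, 241 and 256 in KO, which overlap. All E15.5 WT libraries were below all E12.5 WT libraries in this region, whereas the WT counts of the start-site region, 1097 to 1693 over both stages, overlap. The covered length over the whole gene was 58.7, 120 and 101 kb in E12.5 WT and 46.2 to 48.2 kb in E12.5 KO. At E15.5 it was 50.3 to 81.7 kb in WT and 49.7 to 74.1 kb in KO. Over the whole gene the density was 42.9, 27.9 and 33.6 counts per covered kb in E12.5 WT and 16.6, 24.5 and 23.3 in E12.5 KO.

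**Figure D2:**
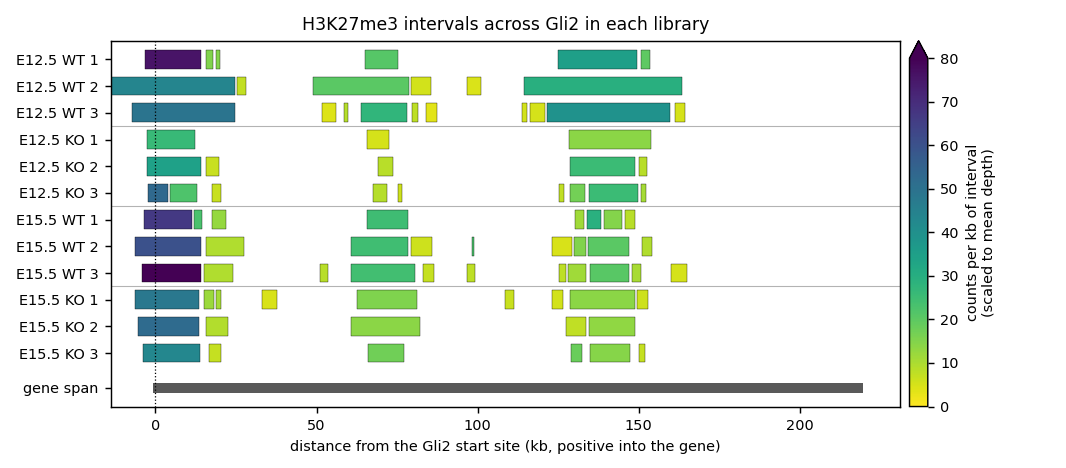
Intervals across Gli2 in the 12 libraries (rows): the x axis is the distance in kb from the start site, positive into the gene, and the colour is normalised counts per kb of interval. Intervals at the start site, near 70 kb and near 140 kb recur in all libraries, and the middle ones are narrow and pale in the 3 E12.5 KO libraries.

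Gli3, the main repressor, also had less mark in KO than in WT at E12.5. The normalised counts were 133, 236 and 205 in E12.5 WT and 22.0, 11.4 and 37.4 in E12.5 KO, with no overlap. At E15.5 it was called in 1 of 3 WT libraries, at 24.1, and in the 3 KO libraries at 37.8, 31.3 and 14.3. The log2 difference at E12.5 was −3.03 (SE 0.48), and at E15.5 no test could be run because 2 libraries lacked an interval. The region at the start site (chromosome 13, 15459801 to 15470400) had 115 ± 13.4 normalised counts in E12.5 WT and 21.5 ± 9.78 in KO (SD, n = 3). It covered 6.4, 9.8 and 6.6 kb in WT and 4.6, 1.8 and 2.0 kb in KO, while its density, 15.9, 13.1 and 17.3 counts per kb in WT and 4.79, 6.36 and 15.49 in KO, overlaps. Before scaling, that start-site region held 18, 12 and 29 counts in the 3 E12.5 KO libraries. The smallest interval counts in these libraries were 10, 6 and 6. Reads outside intervals are not counted, and their part in the difference was not tested. A region inside the gene (15617401 to 15625400) was called in the 3 E12.5 WT libraries, at 31.0, 63.3 and 42.2, and in no E12.5 KO library.

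**Figure D3:**
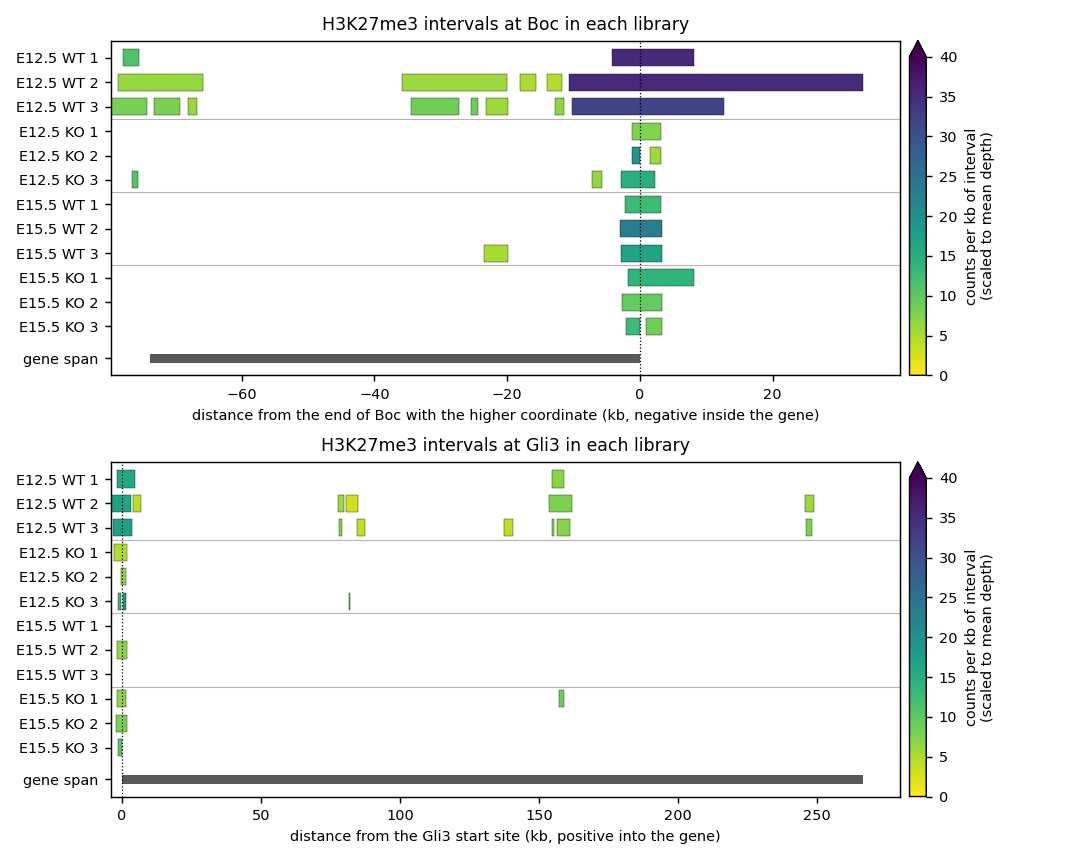
Intervals at Boc (top, distance in kb from the gene end with the higher coordinate) and Gli3 (bottom, distance in kb from the start site) in the 12 libraries; colour is normalised counts per kb of interval. The 3 E12.5 WT libraries have the widest intervals at both genes, and 2 E15.5 WT libraries have none at Gli3.

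Transcription of Gli1 is a widely used readout of the pathway. Its normalised counts of the mark were 857, 1087 and 975 in E12.5 WT and 534, 661 and 819 in E12.5 KO, with no overlap. They were 650, 687 and 790 in E15.5 WT and 790, 802 and 778 in E15.5 KO, which overlap. The log2 differences were −0.54 (SE 0.30) at E12.5 and 0.15 (SE 0.11) at E15.5. The E12.5 value was close to the median of all genes, −0.57. Most of this count belongs to the interval at the lower-coordinate end, and the region of these intervals overlaps the neighbouring Arhgap9. In E12.5 WT the interval at the other end held 124, 151 and 147 normalised counts. In E12.5 WT replicate 1 the interval at the lower-coordinate end, with 733 of the 857 counts, ended at 127329600, before Gli1 begins at 127329882. It was counted there only through the margin. In E15.5 WT replicate 1 it held 592 of the 650 counts and ended at 127330000, just inside Gli1. In the other libraries it reached further into Gli1, and the part of each gene in its count cannot be told apart.

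The comparison over all genes places these values. At E12.5 edgeR's quasi-likelihood test at an adjusted p under 0.05 called 4.05% of 3139 genes lower in KO and 0% higher, and 905 genes had an unadjusted p under 0.05. DESeq2 called 98 lower and 73 higher. Of the 7 hedgehog genes that could be tested, Boc, Gli3 and Gli2 were among the genes called lower, and none was called higher. Since the genes were chosen on this contrast, nothing is read from that count. Each of the 3 calls was lost without KO replicate 1, at log2 differences of −4.05, −2.99 and −1.55. Every KO library lay below every WT library in 33% of the genes tested and in 4 of the 7 (Boc, Gli1, Gli2 and Gli3).

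The size of these differences depends on the scaling. With TMM factors, which centre the bulk of genes, the median of all genes at E12.5 moved from −0.57 to −0.05. Relative to the median under depth scaling, Boc stood at −3.72, Gli3 at −2.46 and Gli2 at −1.13, while Gli1 was at 0.04, Hhip at 0.33 and Shh at 1.12. Boc, Gli3 and Gli2 kept a negative difference with TMM factors (−3.77, −2.52 and −1.15), Gli1 was at −0.01, and Hhip turned to 0.26. Shh was at 1.07 and was then among the genes called higher. The same direction for Gli2, Gli3 and Boc and the opposite one for Shh held under all 13 alternatives.

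At E15.5 edgeR called 0.0742% of 2694 genes lower in KO and 0.408% higher. None of the 5 hedgehog genes that could be tested was called, 303 genes of all had an unadjusted p under 0.05, and Gli2 was the 1 of the 5 among them. DESeq2 called 24 genes lower and 48 higher, Gli2 among those lower at −0.54. The median of all genes was −0.01, and 0.000875 with TMM factors.

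**Figure D4:**
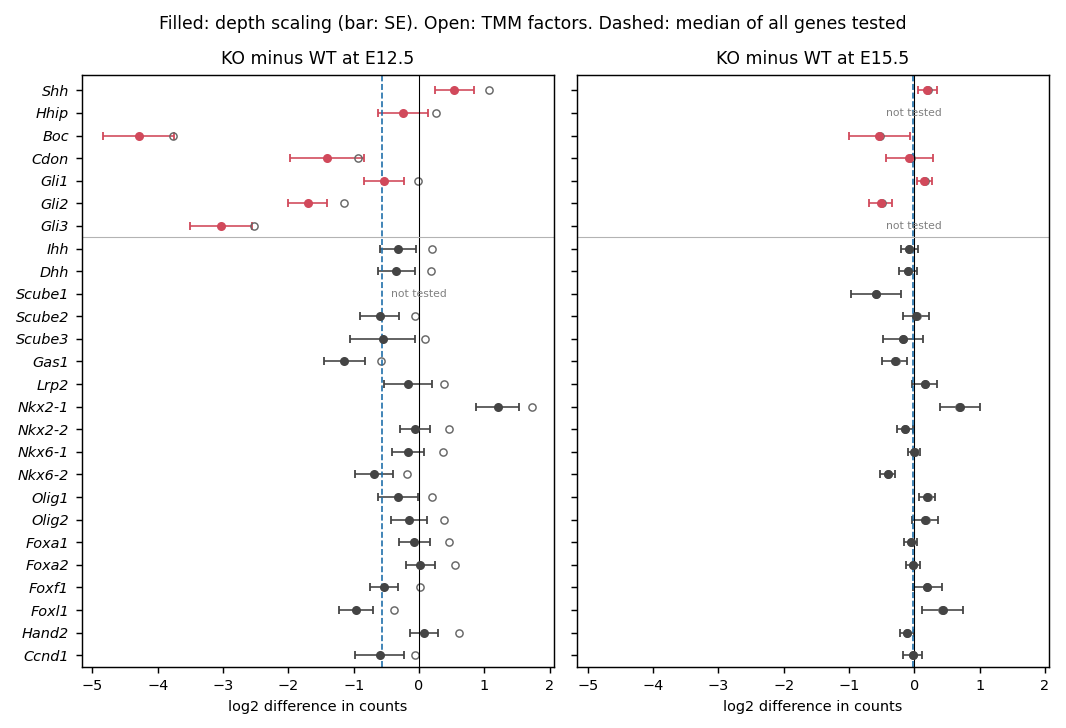
Log2 difference in counts, KO minus WT, at E12.5 (left) and E15.5 (right) for the hedgehog genes tested (red, above the line) and the other pathway genes tested (grey). Bars are the SE, open circles the values with TMM factors and the dashed line the median of all genes under depth scaling. With TMM factors the median at E12.5 was −0.05, which is not drawn. At E12.5 Boc, Gli3 and Gli2 lie to the left of the dashed line under both scalings and Shh to the right, and at E15.5 all values lie within 1 log2 unit of 0.

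Between the stages in WT, edgeR called 35.8% of 2623 genes lower at E15.5 and 1.72% higher. Of the 5 hedgehog genes tested Boc, at −3.19 (SE 0.53), and Gli1, at −0.46 (SE 0.15), were among the genes called lower. The Boc call held in 13 of 13 alternatives and the Gli1 call in 2 of 13. The median of all genes was −0.58, and −0.10 with TMM factors, under which Gli1 was at 0.01 and Boc at −2.65. The Gli2 difference was −0.63 (SE 0.21), close to that median, and −0.16 with TMM factors. Shh went against the median at 0.32 (SE 0.13), and Cdon at 0.52 (SE 0.58). The E15.5 WT libraries and E12.5 WT replicate 1 were the 4 shallowest of the 12, and the part of depth in the stage differences was not tested.

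Between the stages in KO, 5.5% of 3002 genes were called lower at E15.5 and 4.13% higher, and the median was −0.05. Cdon was the 1 of 6 hedgehog genes called, on the higher side, and it was not called without E12.5 KO replicate 1, at 1.62. Gli2 had a difference of 0.56 (SE 0.29), with all E15.5 KO libraries above all E12.5 KO libraries. Boc had 0.58 (SE 0.44), Gli1 0.23 (SE 0.29), Gli3 0.20 (SE 0.46) and Shh −0.03 (SE 0.29).

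The difference between the genotype effects at the 2 stages was estimated with an interaction term. In edgeR 0.562% of 2491 genes were called with a higher value at E15.5 and 0% with a lower one, 686 genes had an unadjusted p under 0.05, and DESeq2 called 38 and 5. No hedgehog gene was among those edgeR called. The interaction was 3.77 (SE 0.80) for Boc, 1.19 (SE 0.32) for Gli2, 1.35 (SE 0.78) for Cdon, 0.69 (SE 0.26) for Gli1 and −0.34 (SE 0.30) for Shh, beside a median of 0.61 over all genes. With TMM factors that median was 0.02, Boc was at 3.13 and Gli2 at 0.58. Without E12.5 KO replicate 3 the number of genes called higher rose from 14 to 959, with Boc, Gli2, Cdon and Gli1 among them.

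The rest of the pathway was read from 4 lists that do not contain the 9 genes. Among 8 genes of ligands and their release, 4 had an interval in all libraries, Scube1 in 11, Disp2 in 3 and Hhat in 1, and Disp1 in none. None of the 4 tested at E12.5 and of the 5 tested at E15.5 was called between the genotypes, with medians of −0.45 and −0.10. Ihh and Dhh, the other hedgehog ligands, differed by −0.32 (SE 0.27) and −0.35 (SE 0.28) at E12.5, where Shh had a positive value.

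Between the stages the Scube genes, whose secreted products help release hedgehog ligands from the cell, went different ways. Scube2 fell from 1786, 2421 and 2344 normalised counts in E12.5 WT to 508, 765 and 818 in E15.5 WT, by 1.65 on the log2 scale (SE 0.22, edgeR adjusted p = 0.00716). In KO it fell from 979, 1805 and 1532 to 825, 686 and 626, by 1.01 (SE 0.30, edgeR adjusted p = 0.0224). The KO call was lost when any library other than E12.5 KO replicate 1 was left out, with adjusted p from 0.0561 to 0.237. Scube3 rose in KO from 89.4, 44.8 and 44.9 to 269, 228 and 117, by 1.77 (SE 0.38, edgeR adjusted p = 0.000934). Scube1 rose in KO from 20.8, 32.4 and 18.2 to 75.7, 119 and 46.6, by 1.73 (SE 0.43, edgeR adjusted p = 0.00481). Scube1 was no longer called without E12.5 KO replicate 1 (1.65), E12.5 KO replicate 3 (1.56) or E15.5 KO replicate 2 (1.33). In WT Scube3 had a difference of 1.37 (SE 0.48, edgeR adjusted p = 0.0580). Scube1 was also higher in E15.5 WT, at 83.0 to 156 normalised counts, than in E12.5 WT, at 0 to 67.0. It was not tested in WT because not every E12.5 library had an interval.

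Among further receptors and co-receptors Gas1 and Lrp2 had an interval in all 12 libraries, and Gpr161 in none. Neither Gas1 nor Lrp2 was called in any of the 5 comparisons. Gas1, a surface protein that binds Shh together with Ptch1, had 851, 1354 and 1154 normalised counts in E12.5 WT and 383, 629 and 511 in E12.5 KO, with no overlap. Its log2 difference of −1.14 (SE 0.32, −0.57 relative to the median) missed the threshold in edgeR at an adjusted p of 0.0542. At E15.5 its values were 595, 868 and 962 in WT and 735, 653 and 587 in KO, which overlap.

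Of 16 genes that transduce the signal in the cell and its cilium none had an interval in all 12 libraries, so none was tested. Kif7 and Iqce had one in 9 libraries, Evc in 7, Sufu, Evc2 and Gsk3b in 6, Prkaca in 4, Spop in 3, Arl13b in 2, and Kif3a and Ift172 in 1. The other 5 (Stk36, Csnk1a1, Tulp3, Rab23 and Ift88) had none. Their highest normalised count was 121, for Kif7 in E12.5 WT replicate 2, the deepest library. Evc and Evc2 are neighbours, and in the 6 libraries with an interval at Evc2 both had the same count.

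Of 14 genes known to respond to the pathway in various tissues, 12 had an interval in all libraries and Mycn and Bcl2 in none. Their median difference at E12.5 was −0.16 beside −0.57 over all genes, and at E15.5 −0.01 beside −0.01. Foxl1 was the 1 gene called at E12.5, at −0.96 (SE 0.25, edgeR adjusted p = 0.0427), all KO libraries below all WT libraries. In 2 of the WT libraries 1 interval spans Foxl1 and Foxf1, and with counts weighted by the overlap with the gene the difference was 0.12. With TMM factors it was −0.39 and not called. It was also no longer called without KO replicate 1 (−0.88), WT replicate 2 (−0.83) or WT replicate 3 (−0.83). Nkx2-1, the gene whose regulatory region drives the Cre, had a difference of 1.21 (SE 0.33) at E12.5, higher than in 99.9% of the genes, with all KO libraries above all WT libraries. It missed the threshold at an edgeR adjusted p of 0.0506 and was called with TMM factors, at 1.73.

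Between the stages in WT, 4 of the 12 tested genes of this list were called lower at E15.5, a share near the 35.8% of all genes. Foxf1, Foxl1, Olig1 and Olig2 were called lower by edgeR, with log2 differences of −0.75, −1.08, −0.73 and −0.80 (adjusted p = 0.0110, 0.0171, 0.0179 and 0.0261). Olig1 and Olig2 are known for oligodendrocyte and motor neuron fates. Relative to the median of all genes the 4 stood at −0.17, −0.50, −0.15 and −0.22. With TMM factors they were −0.27, −0.58, −0.25 and −0.35, and none was called. With counts weighted by overlap Foxf1 was at 0.08. Foxf1 was not called without E15.5 WT replicate 2 (−0.71), and the other 3 were not called without E12.5 WT replicate 3, E15.5 WT replicate 1 or E15.5 WT replicate 2, nor Olig2 without E12.5 WT replicate 2. No gene of this list was called between the stages in KO or for the interaction.

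Over the 12 libraries the genes whose log2 normalised counts were most like those of Gli2, among 2491 genes with an interval in every library, were Fzd7 (Pearson r = 0.98), Nid2 (0.98), Gas1 (0.97), Tnfrsf19 (0.96) and Lrp4 (0.95). Genes within 60 kb of Gli2 were left out. The libraries share their depth scaling, and the median r with Gli2 over all genes was 0.55. Fzd7, which encodes a Wnt receptor, had mean normalised counts of 2125 (WT) and 463 (KO) at E12.5, and of 1211 (WT) and 863 (KO) at E15.5. Lrp4, a membrane protein of the LDL receptor family, had 601, 185, 463 and 366 in the same order. Of the hedgehog genes Boc was the most like Gli2 (0.89), followed by Gli1 (0.77) and Cdon (0.53), and Shh ran the other way (−0.48), with a lower r in 0.0401% of the genes.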

How the data were processed

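H3K27me3 CUT&Tag was analysed in 12 of the 18 samples, and the 6 heterozygous samples were not analysed here. Each library has its own interval list on a 200 bp grid. The count and the score of each interval are used as the authors deposited them, the count being a raw whole number. The submitters' processing notes name cutadapt, Bowtie2, SAMtools, Picard, deepTools and SICER, and the builds GRCm38 and mm10, with no role or order, and thresholds are not given in the sources used here. In intervals of 1 window the score followed the negative natural log of a Poisson probability of the count, to within 0.00138, and the mean of that distribution was taken as the depth. It was assumed to scale with the reads of a library. Deeper libraries can yield wider intervals.

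Genes and promoters came from RefSeq (GRCm38.p6). Counts of all intervals within 2.5 kb of a gene were summed in full, and covered lengths and values per kb count only the part inside that span. Genes with an interval in every library of a comparison were tested with edgeR 4.0.16 (quasi-likelihood, library sizes proportional to depth, Benjamini-Hochberg adjustment over all genes tested, threshold 0.05) in R 4.3.3, using only the groups compared, or all 4 for the interaction. The SE is the log2 difference over the square root of F. The test was checked on simulated counts. The alternatives were TMM factors, DESeq2 1.42.0, total counts in autosomal intervals, the replicate number as a block, a mean count of at least 50, counts weighted by overlap, no margin, and leaving out each library. The labels call the samples biological replicates, with pooling of embryos not given per sample.

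The hedgehog genes and the other lists were chosen with earlier results of these data known. The text names the 9 genes, the genes of the 4 pathway lists that were called or had intervals in some libraries, and the 5 genes most correlated with Gli2. Gas1, Lrp2, Ihh, Dhh and Nkx2-1 were named beyond this rule after their values were seen, as were genes without any interval. Some genes of the lists are not reported here. Python 3.11.15, numpy 2.4.6, pandas 2.3.3 and matplotlib 3.10.9 were used.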

Additional observations from a re-analysis of the deposited data

How the results depend on the processing

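Among single genes, 437 of the values under alternatives were counted as unchanged, 37 as weaker, 30 as moved and 4 as reversed. A hedgehog gene was unchanged if its value shifted by less than its within-group SD on the log2 scale, and moved otherwise. The threshold did not enter for these genes, so a lost call could count as unchanged. So could a change of sign where nothing was called. For a call in the other lists, unchanged meant still past the threshold. Weaker meant the same direction but no longer past it. The 4 reversed values belong to called results. They were Foxl1 at E12.5 (0.12) and Foxf1 between the stages in WT (0.0815) with counts weighted by overlap. The others were Gli1 between the stages in WT with DESeq2 (0.12) and TMM factors (0.0129). The counts of genes called depended more on the processing. TMM factors gave 38 lower and 9 higher calls at E12.5 (127 and 0 as reported), 449 lower and 271 higher between the stages in WT (940 and 45), 269 higher in KO (124) and 6 for the interaction (14). DESeq2 gave 73 higher at E12.5, 24 lower and 48 higher at E15.5, 382 lower and 373 higher between the stages in WT, 258 lower and 305 higher in KO, and 5 lower and 38 higher for the interaction. Scaling to total counts gave 21 lower and 1 higher at E12.5, 17 higher at E15.5, 521 lower and 126 higher in WT, and 223 higher in KO. Weighting by overlap gave 225 lower and 4 higher at E12.5 and 29 for the interaction, and no margin gave 1 higher at E12.5. The cause was not tested. Whether the replicate numbers pair the samples differed by comparison. Correlations of same-numbered deviations were 0.0391 to 0.116 between the genotypes at E12.5 and 0.0265 to 0.397 between the stages in WT. They were −0.361 to −0.166 between the genotypes at E15.5 and −0.0365 to 0.129 between the stages in KO. In no comparison did every sample correlate best with its own number, and the number was not used as a block in the main fits. A fit with the replicate block gave 298 lower and 7 higher at E12.5, 0 and 0 at E15.5, 82 higher between the stages in KO and 25 for the interaction. Leaving out 1 library gave 11 to 902 lower and 0 to 8 higher at E12.5 (11 without KO replicate 1, 475 without WT replicate 1 and 902 without KO replicate 3), 0 to 2 and 0 to 12 at E15.5, 83 to 1351 and 2 to 94 in WT, 68 to 137 and 77 to 189 in KO, and 0 and 0 to 959 for the interaction. Ptch1, Hhip and Gli3 had intervals in some libraries only, and the part of depth in this was not tested.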
